A study of Mus musculus with 6 samples.

Results

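The genes described here are 52 transcripts typical of white blood cells, followed in RNA of cultured mouse lung endothelial cells from which cells carrying CD16 or CD32 had been removed. They were taken by name from a list of pan-leukocyte, macrophage and monocyte, complement, Fc receptor, T cell, B cell, natural killer (NK) cell and neutrophil genes. Of the 52, 29 had a row among the 23345 genes of the table and 23 had no row in the table as analysed here. Of the 29, 18 reached a mean of 10 normalized counts over the 6 libraries, as did 15655 genes of the whole table, and only these were tested. The remaining 11 lay under that mean and are given as values. The 2 groups were C57BL/6JOlaHsd mice on a high-fat diet (HFD, mice 2, 4 and 5) and mice of the same strain on a normal diet (ND, mice 1, 3 and 4), 3 mice each, after 12 weeks of the diet, with no other allele or agent named. In all 6, lung cells freed with collagenase were first grown on plates, depleted with beads against CD16/CD32, which are Fc receptors, then captured through ICAM-2, an adhesion protein of endothelium, and plated again on collagen I before RNA was taken. Each library was made from 500 of these cells, so the measurements are of cells after culture and not of endothelium fresh from the lung.

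Leukocytes are marked by CD45, a membrane phosphatase encoded by Ptprc, and their lineages by further surface receptors, antigen receptor chains and granule or secreted proteins. In the lung, alveolar and interstitial macrophages clear particles and surfactant, while T cells, B cells, NK cells and neutrophils lie in vessels and tissue. CD16 (Fcgr3) and CD32 (Fcgr2b) bind the constant part of IgG, and CD16 needs the common gamma chain Fcer1g, which carries an activation motif (ITAM), to reach the surface and to signal. Several genes used as myeloid markers are also transcribed elsewhere: Lyz2, which encodes lysozyme, in alveolar type II epithelium, and Mrc1, which encodes the mannose receptor CD206, in lymphatic and some other endothelium.

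The deposited values are reads per gene scaled by the authors with 1 size factor for each library, called normalized counts below. The libraries held 18.8 to 27.9 M reads in HFD mice and 13.8 to 17.2 M reads in ND mice. A read was worth 0.720 to 1.19 normalized counts. A library with 0 reads of a gene allows up to 3 reads, which is 2.16 to 2.91 normalized counts in HFD libraries and 3.21 to 3.56 in ND libraries. The cDNA was amplified by PCR and no molecular identifiers are mentioned, so such limits cover counting error only. A set of 15 endothelial genes, among them Ptprb, a receptor phosphatase, and Cldn5, a tight junction protein, summed to 211537 to 243033 normalized counts in HFD and 173594 to 208704 in ND libraries. All 29 leukocyte genes together summed to 732 to 1336 in HFD and 685 to 7241 in ND libraries. In bulk RNA of this kind, fewer cells of a type and less RNA per cell cannot be told apart. No library from before the depletion was analysed here, so the levels cannot be set against an undepleted state.

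The gene of the captured protein was high in every library and those of the depleted receptors were low or present in few. Icam2 (chr11:106377656-106388075, minus strand) had 22005, 21851 and 25569 normalized counts in HFD 2, HFD 4 and HFD 5, and 16169, 19643 and 14073 in ND 1, ND 3 and ND 4. Fcgr3 (chr1:171051174-171064935, minus strand) had 103, 0 and 0 normalized counts in HFD 2, HFD 4 and HFD 5, and 0, 0 and 137 in ND 1, ND 3 and ND 4. Fcgr2b, the inhibitory IgG receptor on B cells and myeloid cells (chr1:170958617-170976547, minus strand), had 1.94, 3.22 and 2.16 normalized counts in HFD 2, HFD 4 and HFD 5, and 2.36, 2.14 and 5.94 in ND 1, ND 3 and ND 4. The CD16 transcript was thus present in 1 library of each diet and at 0 reads in the other 4, whereas the CD32 transcript stayed within a few reads in all 6. The 2 genes resemble each other in sequence, so how reads were split between them is uncertain.

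To show what precedes the genes whose levels are described first, the 250 bases upstream of the RefSeq transcript start (GRCm38.p6) are printed for Fcgr3, Fcer1g, Lyz2 and Mrc1. Capitals mark GAGGAA, the core letters bound by the myeloid factor PU.1, or its reverse complement TTCCTC, searched on both strands. Fcgr3, chr1:171059395-171059644, minus strand, the first of its 2 starts in the RefSeq table, holds 1 copy 15 bases before the start. Fcer1g, chr1:171234350-171234599, minus strand, and Lyz2, chr10:117282273-117282522, minus strand, hold 0 copies. Mrc1, chr2:14229164-14229413, plus strand, holds 3 copies, at 180, 167 and 35 bases before the start.
Fcgr3: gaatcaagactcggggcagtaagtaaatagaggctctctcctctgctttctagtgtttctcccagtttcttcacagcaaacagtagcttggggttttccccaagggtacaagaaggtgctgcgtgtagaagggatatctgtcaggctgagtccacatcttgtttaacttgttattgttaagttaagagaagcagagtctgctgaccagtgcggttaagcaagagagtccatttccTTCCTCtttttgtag
Fcer1g: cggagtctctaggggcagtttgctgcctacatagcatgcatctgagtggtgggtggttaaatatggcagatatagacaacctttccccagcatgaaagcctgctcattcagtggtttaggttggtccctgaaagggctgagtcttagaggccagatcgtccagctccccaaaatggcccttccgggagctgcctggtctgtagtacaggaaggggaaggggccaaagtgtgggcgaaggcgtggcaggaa
Lyz2: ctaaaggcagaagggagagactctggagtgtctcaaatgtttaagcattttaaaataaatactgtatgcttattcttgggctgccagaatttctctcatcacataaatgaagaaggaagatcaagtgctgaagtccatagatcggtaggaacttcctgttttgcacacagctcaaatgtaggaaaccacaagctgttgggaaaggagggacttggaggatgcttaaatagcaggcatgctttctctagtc
Mrc1: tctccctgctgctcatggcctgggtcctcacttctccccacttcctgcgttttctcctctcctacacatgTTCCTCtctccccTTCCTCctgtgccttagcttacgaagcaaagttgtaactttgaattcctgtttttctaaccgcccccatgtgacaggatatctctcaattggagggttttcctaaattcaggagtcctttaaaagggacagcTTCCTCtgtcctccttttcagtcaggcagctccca
Of the 29 genes with a row, 21 had a promoter in the RefSeq table, and 13 of these (61.9%) held at least 1 copy, as did 6986 of all 27025 genes of that table (25.9%). A match is a description of these letters and not of a bound site.

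Among the pan-leukocyte genes, Ptprc was low and even in all 6 libraries, and the other genes of the group were lower or rose above a few reads in few libraries. Ptprc had 13.6 to 14.5 normalized counts in HFD libraries and 11.8 to 17.1 in ND libraries, and its highest library held 20.4% of its summed counts. Cd52, which encodes a small glycoprotein of lymphocytes and myeloid cells, had 0.720 to 1.94 normalized counts in HFD and 1.19 to 5.35 in ND libraries. Laptm5, a lysosomal protein of blood cells, had 1.44 to 54.4 in HFD and 2.38 to 12.8 in ND libraries, with 68.5% of its counts in HFD 2. Per kilobase of annotated exon, Ptprc averaged 0.762 normalized counts over the 6 libraries, against 847 for Lyz2, 73.8 for Cd68, 26.8 for Mrc1 and 17112 for the endothelial Cldn5. The marker that all leukocytes share was therefore far below several of the myeloid genes in mean per length, and it was even across libraries where they varied. These means hide the libraries: 95.5% of the Lyz2 counts lay in ND 3, and Lyz2 was at 0 reads in HFD 4 and ND 1. The myeloid genes Trem2 and Mpeg1 averaged 0.278 and 0.241 per kilobase, below Ptprc. The Ptprc length of 18.3 kb joins all its annotated exons, which lowers its value per kilobase.

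**Figure D1:**
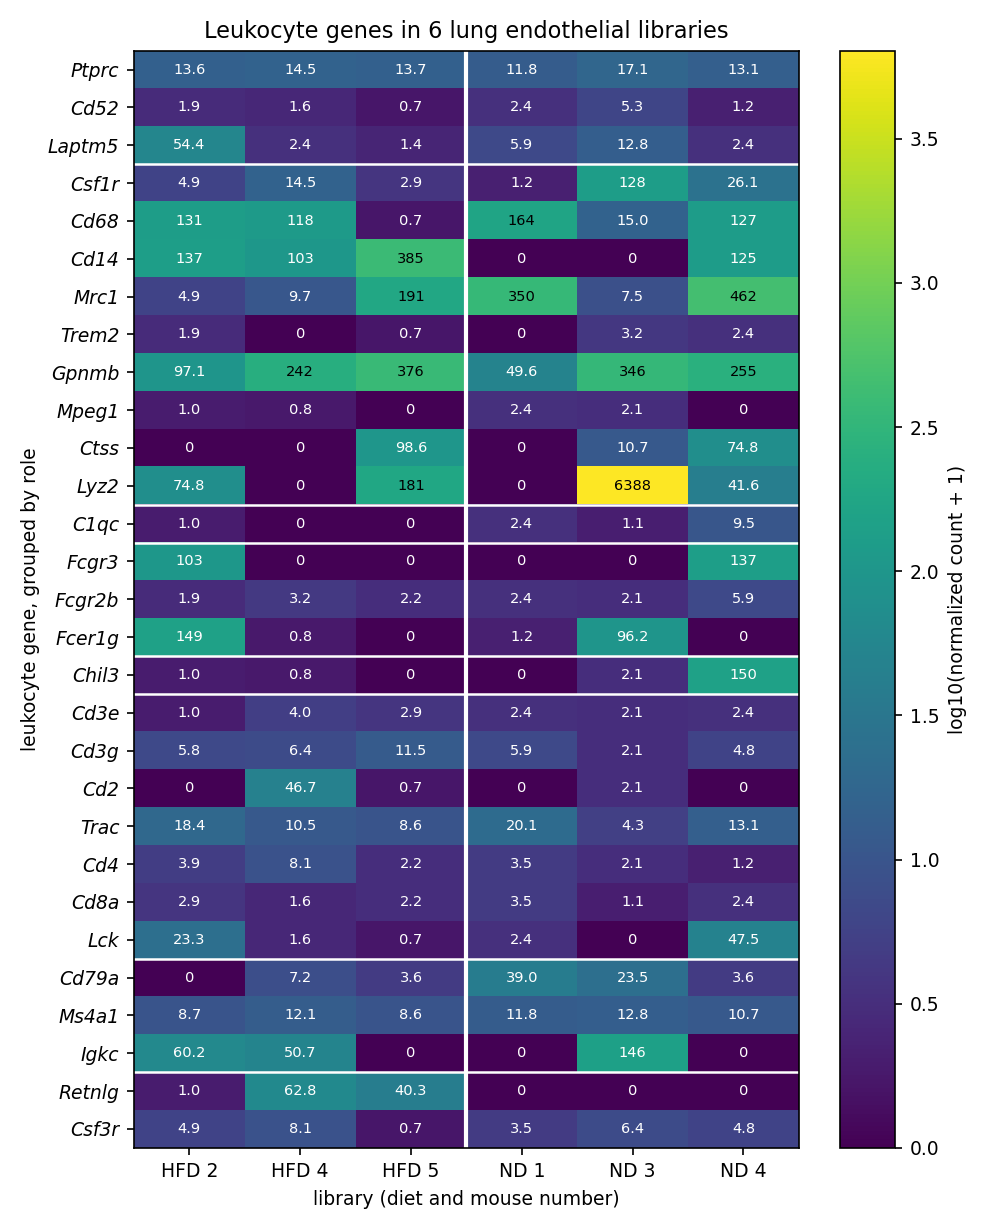
Heat map of the 29 listed leukocyte genes with a row in the 6 libraries, HFD at left and ND at right, with each normalized count printed in its cell and colour on a log10(normalized count + 1) scale. Horizontal lines separate roles; Ptprc and Ms4a1 are alike across the row while Lyz2, Fcer1g and Chil3 are bright in few cells.

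Of the 13 listed genes of macrophage and monocyte receptors, enzymes and regulators, 9 had a row. These held most of the leukocyte reads in every library except HFD 2, where they held 466 of 935. Of them, 5 had a mean of at least 50 normalized counts, namely Lyz2, Gpnmb, Mrc1, Cd14 and Cd68. Spi1, which encodes PU.1, Adgre1, which encodes F4/80, Marco, a scavenger receptor of alveolar macrophages, and Lyz1, the lysozyme copy next to Lyz2, had no row in the table as analysed here. None of the 5 abundant genes passed the adjusted threshold of 0.05 between the diets.

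Lyz2 (chr10:117277331-117282321, minus strand) had 74.8, 0 and 181 normalized counts in HFD 2, HFD 4 and HFD 5, and 0, 6388 and 41.6 in ND 1, ND 3 and ND 4. ND 3 alone held 95.5% of its counts, and the other 5 libraries of both diets overlapped. The means were 85.4 ± 91.2 in HFD and 2143 ± 3676 in ND mice (SD, n = 3 each), and the log2 fold change was -1.43 with a standard error of 3.30 (adjusted p = 0.945, limma). It was -4.77 with edgeR and -4.78 with DESeq2 on the recovered reads, 1.88 without ND 3 and 0.86 without HFD 4. Because Lyz1 is nearly identical in sequence, reads of either may be counted as the other.

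Of the 4 surfactant genes listed, 3 were highest in the same ND 3 library and Sftpd was not. Of 15 epithelial genes, 14 had a row and 8 were highest in ND 3; the list summed to 4814 to 18670 normalized counts in HFD libraries, and to 4451 in ND 1, 103808 in ND 3 and 7807 in ND 4. Sftpc, the surfactant protein C gene of alveolar type II cells, had 111, 1195 and 447 normalized counts in HFD 2, HFD 4 and HFD 5, and 959, 70918 and 798 in ND 1, ND 3 and ND 4. Sftpa1 had 0.971 to 190 in HFD libraries and 5386 in ND 3, and Sftpb had 0 to 2.91 in HFD libraries and 567 in ND 3; these 2 were named after their values were seen. Sftpd had 3.88, 107 and 0.720 normalized counts in HFD 2, HFD 4 and HFD 5, and 54.3, 75.9 and 1.19 in ND 1, ND 3 and ND 4. Ager, a gene of alveolar type I cells and the next after Sftpc in mean, had 3568, 3207 and 16933 in HFD 2, HFD 4 and HFD 5, and 1525, 23563 and 5253 in ND 1, ND 3 and ND 4. It was thus high in HFD 5 as well as in ND 3, and the club cell gene Scgb1a1 was highest in HFD 4, at 654, with 305 in ND 3. At 0 reads were Sftpb in HFD 4 and the lung epithelial factor Nkx2-1 in HFD 2. The part of epithelial RNA in the Lyz2 level was not tested.

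Mrc1 (chr2:14229392-14332057, plus strand) had 4.86, 9.66 and 191 normalized counts in HFD 2, HFD 4 and HFD 5, and 350, 7.48 and 462 in ND 1, ND 3 and ND 4. Each diet held both low and high libraries, so the diets overlapped. The means were 68.4 ± 106 in HFD and 273 ± 237 in ND mice (SD, n = 3 each), with a log2 fold change of -2.28 and a standard error of 1.91 (adjusted p = 0.795, limma).

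The lymphatic endothelial list is set beside Mrc1 because lymphatic vessels also make it. All 9 genes of that list had a row, none was at 0 reads in any library, and they summed to 5844 to 16922 normalized counts in HFD and 16558 to 34590 in ND libraries. Of the 9, 8 were tested and 0 passed the adjusted threshold with limma. Lyve1 and Pdpn, 2 of the 8, had every HFD library below every ND library, against 5.93% of all genes. DESeq2 called 1 of the 8, Pdpn, against 2.1% of the genes to which it gave an adjusted p, and gave none for Stab2. Ccl21a, a chemokine of lymphatic endothelium, had 701, 4481 and 9634 normalized counts in HFD 2, HFD 4 and HFD 5, and 15178, 4358 and 22638 in ND 1, ND 3 and ND 4. Lyve1, a hyaluronan receptor of lymphatic vessels, had 3779 to 5754 in HFD and 7202 to 8014 in ND libraries, and the lymphatic master factor Prox1, named after its values were seen, had 4.32 to 26.2 in HFD and 11.8 to 396 in ND libraries. Mrc1 and Ccl21a put the 6 libraries in the same order, lowest in HFD 2 and highest in ND 4, which was noticed after the values were seen. The other lymphatic genes did not follow that exact order. Lyve1, Pdpn and Stab1 were highest in ND 3, where Mrc1 was low, at 8014, 1475 and 1715 normalized counts, and Prox1 was lowest in HFD 5. Reln came near the order, lowest in HFD 2 and next in ND 3 but highest in ND 1. It had 6.80, 254 and 155 in HFD 2, HFD 4 and HFD 5, and 732, 37.4 and 555 in ND 1, ND 3 and ND 4. Pdpn had 48.6, 160 and 138 normalized counts in HFD 2, HFD 4 and HFD 5, and 629, 1475 and 1187 in ND 1, ND 3 and ND 4. Its log2 fold change was -3.32 (adjusted p = 0.338 with limma and 8.49e-06 with DESeq2). The part of lymphatic cells in the Mrc1 level was not tested.

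**Figure D2:**
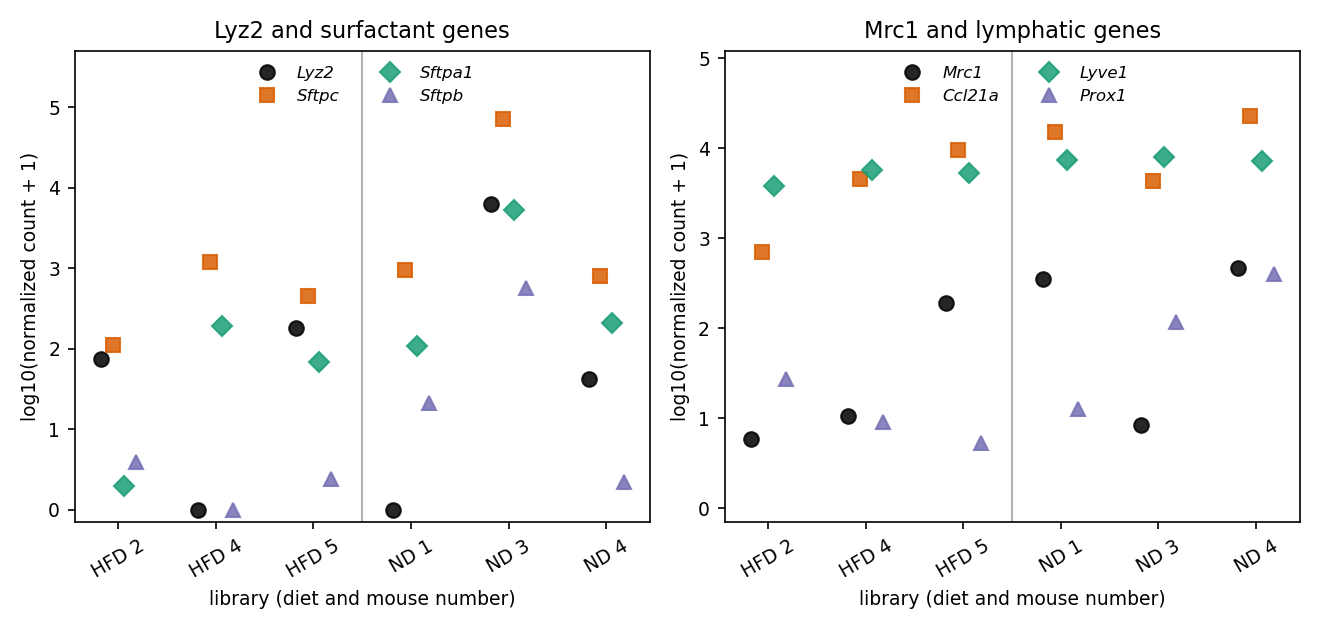
Left, Lyz2 beside 3 of the 4 surfactant genes listed (Sftpd is not drawn), and right, Mrc1 beside 3 lymphatic endothelial genes, in the 6 libraries with HFD left of the vertical line; the y axis is log10(normalized count + 1) and each point is 1 gene in 1 library. Lyz2, Sftpc, Sftpa1 and Sftpb all have their highest point in ND 3, where Lyz2 had 6388 normalized counts, while Mrc1 is high in HFD 5, ND 1 and ND 4.

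Gpnmb, a transmembrane glycoprotein of lipid-laden and phagocytic macrophages (chr6:49036546-49070929, plus strand), was the one abundant myeloid gene well above the limit of 3 reads in every library. It had 97.1, 242 and 376 normalized counts in HFD 2, HFD 4 and HFD 5, and 49.6, 346 and 255 in ND 1, ND 3 and ND 4. The means were 238 ± 139 in HFD and 217 ± 152 in ND mice (SD, n = 3 each), with a log2 fold change of 0.33 and a standard error of 0.89 (adjusted p = 0.954, limma). The fold change was 0.04 with edgeR and 0.04 with DESeq2 on the recovered reads, -0.10 without HFD 5 and -0.52 without ND 1.

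Cd14, the lipopolysaccharide co-receptor, on chromosome 18, was present in all HFD libraries and in 1 of the 3 ND libraries. It had 137, 103 and 385 normalized counts in HFD 2, HFD 4 and HFD 5, and 0, 0 and 125 in ND 1, ND 3 and ND 4. The diets overlapped, since ND 4 lay above HFD 4. The means were 208 ± 154 in HFD and 41.6 ± 72.0 in ND mice (SD, n = 3 each), a ratio of 5.01, and the log2 fold change of 5.14, which for libraries at 0 reads depends on the added count of 1, had a standard error of 1.92 (unadjusted p = 0.0308, adjusted p = 0.574, limma). On the recovered reads the log2 fold change was 2.23 with edgeR and 2.22 with DESeq2.

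Cd68, a lysosomal membrane protein of macrophages (chr11:69664213-69666153, minus strand), was high in 4 libraries and low in 1 of each diet. It had 131, 118 and 0.720 normalized counts in HFD 2, HFD 4 and HFD 5, and 164, 14.97 and 127 in ND 1, ND 3 and ND 4. The value in HFD 5 is 1 read in the deepest library. The means were 83.4 ± 71.9 in HFD and 102 ± 77.7 in ND mice (SD, n = 3 each), with a log2 fold change of -1.21 and a standard error of 1.85 (adjusted p = 0.899, limma), which was 0.85 without HFD 5, -0.29 with edgeR and -0.32 with DESeq2.

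The less abundant myeloid genes were each high in few libraries or in none. Csf1r, the receptor for the macrophage growth factors CSF1 and IL-34, had 2.88 to 14.5 normalized counts in HFD libraries, and 1.18, 128 and 26.1 in ND 1, ND 3 and ND 4. Ctss, which encodes the lysosomal protease cathepsin S, had 0, 0 and 98.6 in HFD 2, HFD 4 and HFD 5, and 0, 10.7 and 74.8 in ND 1, ND 3 and ND 4. Trem2, a lipid-sensing receptor of macrophages, and Mpeg1, a pore-forming protein of phagocytes, stayed at or under 3 reads in every library, with at most 3.21 and 2.36 normalized counts. Of the exonic bases of Csf1r, 15.1% are also annotated to Hmgxb3, and whether counting used strand is not given in the sources used here. ND 3 was thus the highest library for Csf1r and Lyz2, HFD 5 for Ctss, Cd14 and Gpnmb, and ND 4 for Mrc1. Within the myeloid group no library was highest for all.

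The complement component C1q, a macrophage product in tissue, is built from 3 chains. Only C1qc had a row, with 0 to 0.971 normalized counts in HFD libraries, and 2.36, 1.07 and 9.50 in ND 1, ND 3 and ND 4. Of the alveolar macrophage and eosinophil genes, Siglecf and Ear2 had no row, while Chil3, a chitinase-like protein of alveolar macrophages, had 0 to 0.971 normalized counts in HFD libraries, and 0, 2.14 and 150 in ND 1, ND 3 and ND 4. ND 4 held 97.5% of the Chil3 counts. Chil3 is thus a transcript of 1 library.

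Fcer1g, the common gamma chain (chr1:171229572-171234365, minus strand), was listed with CD16 and shared 1 of its libraries. It had 149, 0.805 and 0 normalized counts in HFD 2, HFD 4 and HFD 5, and 1.18, 96.2 and 0 in ND 1, ND 3 and ND 4. HFD 2 had both transcripts, ND 3 had Fcer1g with 0 reads of Fcgr3, and ND 4 had Fcgr3 with 0 reads of Fcer1g. Fcgr1, which encodes the high-affinity IgG receptor, and Tyrobp, the adaptor DAP12, had no row. The 3 Fc receptor genes with a row summed to 86.5 ± 145 normalized counts in HFD and 81.5 ± 71.0 in ND mice (SD, n = 3 each), with 50.3% of the 6 libraries' sum in HFD 2.

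Other genes that were high in HFD 2 and ND 3 were picked after their values were seen. Itgb2, the beta chain of leukocyte integrins, had 216, 0.805 and 2.16 normalized counts in HFD 2, HFD 4 and HFD 5, and 1.18, 105 and 0 in ND 1, ND 3 and ND 4. The pan-leukocyte gene Ptpn6 had 74.8, 2.42 and 10.8 in HFD 2, HFD 4 and HFD 5, and 0, 46.0 and 0 in ND 1, ND 3 and ND 4. Itgb2 and Ptpn6 come from a list of pan-leukocyte genes of which 12 had a row. No other gene of that list was high in both HFD 2 and ND 3 and low in the rest. Cd53 and Coro1a had at most 3.54 and 3.21 normalized counts in any library, and Cytip had 6.80 in HFD 2 and 339 in ND 3. The platelet gene Itga2b had 175, 8.05 and 78.5 in HFD 2, HFD 4 and HFD 5, and 11.8, 155 and 8.32 in ND 1, ND 3 and ND 4. The platelet receptor gene Gp1ba had 125, 0.805 and 0 in HFD 2, HFD 4 and HFD 5, and 2.36, 128 and 0 in ND 1, ND 3 and ND 4. Platelets also carry Fcer1g. Of 10 erythroid and platelet genes, 8 had a row, and they summed to 5753, 633 and 515 normalized counts in HFD 2, HFD 4 and HFD 5, and to 1377, 1596 and 858 in ND 1, ND 3 and ND 4. The platelet chemokine gene Ppbp had 4065, 96.6 and 166 in HFD 2, HFD 4 and HFD 5, and 980, 692 and 95.03 in ND 1, ND 3 and ND 4, and Pf4 had 89.4 to 859 in HFD and 148 to 339 in ND libraries. Of this list, Gp1ba was at 0 reads in HFD 5 and ND 4, and the globin Hbb-bt in HFD 2, ND 1 and ND 3. The part of platelets in the Fcer1g level was not tested.

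**Figure D3:**
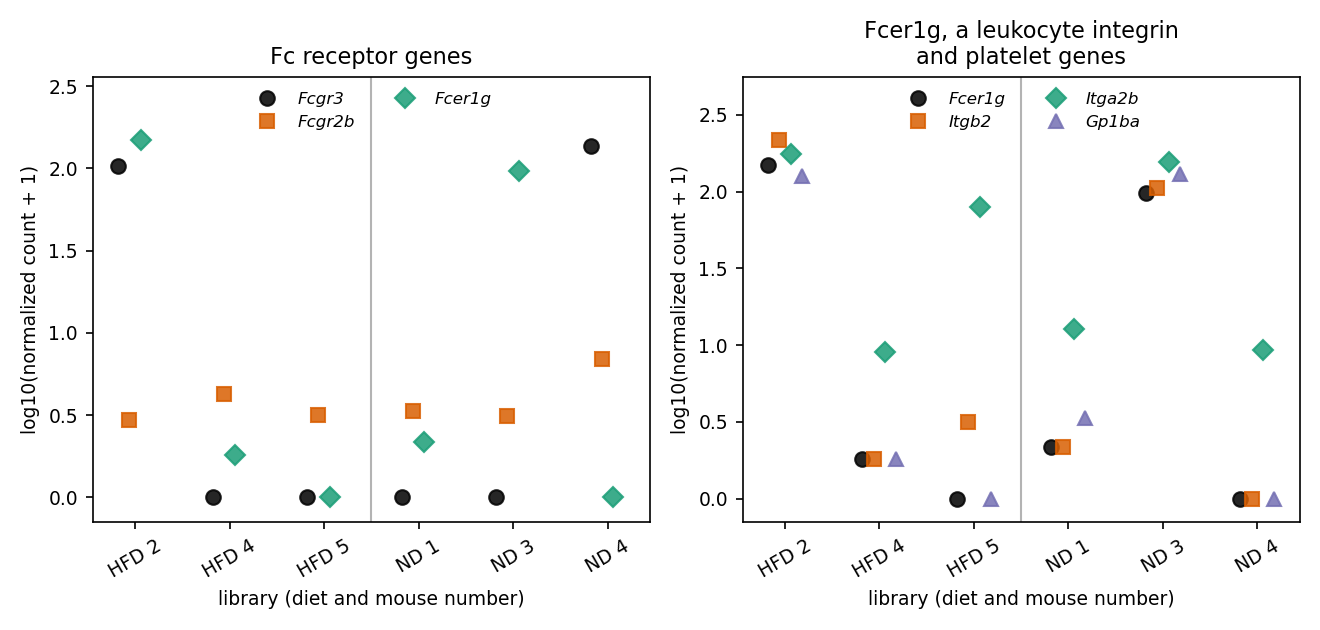
Left, the 3 Fc receptor genes with a row, and right, Fcer1g beside the leukocyte integrin gene Itgb2 and the platelet genes Itga2b and Gp1ba, on a log10(normalized count + 1) axis, with HFD libraries left of the vertical line. Fcgr3 is at 0 in 4 libraries and Fcer1g, Itgb2 and Gp1ba are all high in HFD 2 and ND 3. Itga2b is high there and also in HFD 5, at 78.5 normalized counts.

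The wider Fc receptor family and ITAM pathway held no gene that passed the adjusted threshold. Of 15 Fc receptor family genes, 7 had a row, 4 were tested and 0 passed. The most abundant were Fcgrt, the neonatal Fc receptor, which endothelium makes, with 681 to 1791 normalized counts in HFD and 210 to 928 in ND libraries, and Trim21, a cytosolic antibody receptor, with 47.5 to 364 in HFD and 37.8 to 334 in ND libraries. Of 14 genes of ITAM signalling, 10 had a row, 9 were tested and 0 passed. The kinase gene Lyn had 2252 to 3499 in HFD and 2133 to 3972 in ND libraries, and the phosphatase gene Inpp5d had 528 to 767 in HFD and 388 to 683 in ND libraries.

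T cell transcripts were detected at a few reads per library, and Trac was the only one above 3 reads in all 6. Of 9 listed genes, 7 had a row, Cd3d and Trbc2 being the exceptions. Trac, the T cell receptor alpha constant segment, had 8.64 to 18.4 normalized counts in HFD and 4.28 to 20.1 in ND libraries. The CD3 chains Cd3e and Cd3g had 0.971 to 11.5 in HFD and 2.14 to 5.91 in ND libraries, and the co-receptors Cd4 and Cd8a had 1.61 to 8.05 in HFD and 1.07 to 3.54 in ND libraries. Cd2 and Lck stood out in 1 or 2 libraries. Cd2, an adhesion receptor of T and NK cells, had 94.2% of its counts in HFD 4, at 46.7 normalized counts. Lck, the kinase that starts T cell receptor signalling, reached 23.3 in HFD 2 and 47.5 in ND 4 and was at or under 2.36 elsewhere. The 7 genes summed to 54.4 ± 25.1 normalized counts in HFD and 41.0 ± 28.8 in ND mice (SD, n = 3 each).

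B cell transcripts differed in kind between libraries. Cd79b and Ighm had no row. Ms4a1, which encodes CD20, was as even as Ptprc, with 8.64 to 12.1 normalized counts in HFD and 10.7 to 12.8 in ND libraries. Igkc, the kappa light chain constant segment that plasma cells make in large amounts, had 0 to 60.2 in HFD and 0 to 146 in ND libraries, and was at 0 reads in HFD 5, ND 1 and ND 4. Cd79a, the signalling chain of the B cell receptor, had 0 to 7.25 in HFD and 3.56 to 39.0 in ND libraries. The highest library for Igkc was ND 3 and that for Cd79a was ND 1. The 3 genes summed to 50.4 ± 33.1 normalized counts in HFD and 82.6 ± 88.7 in ND mice (SD, n = 3 each).

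None of the 6 NK and cytotoxic genes (Nkg7, Klrb1c, Gzma, Gzmb, Ncr1 and Prf1) had a row, and of the 5 neutrophil genes S100a8, S100a9 and Ly6g had none. Retnlg, a resistin-like protein of neutrophils, had 0.971, 62.8 and 40.3 normalized counts in HFD 2, HFD 4 and HFD 5, and 0, 0 and 0 in ND 1, ND 3 and ND 4. Every HFD library lay above every ND library, but HFD 2 held 1 read, which is below the limit that 0 reads allows in ND. With each ND library at its limit of 3 reads, Retnlg was at least 10.1-fold higher in HFD by the means. That bound was 6.01-fold without HFD 4. The adjusted p was 0.574 (limma, unadjusted p = 0.0308), and it depends on the count of 1 added to ND values that were all 0. Retnlg reached the mean of 10 only through HFD 4 and HFD 5. The bound and the p therefore describe this gene and are no support for a difference between the diets. Csf3r, the receptor for granulocyte colony-stimulating factor, had 0.720 to 8.05 in HFD and 3.54 to 6.41 in ND libraries. The other neutrophil gene with a row thus did not separate the diets.

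Summed over roles, the leukocyte genes held a very small share of each library, and 1 gene in 1 library set the difference between the diets. The 29 genes took 935, 909 and 1856 reads in HFD 2, HFD 4 and HFD 5, and 580, 6773 and 1282 reads in ND 1, ND 3 and ND 4, which is 0.00410% to 0.00665% of the reads of an HFD library and 0.00337% to 0.0467% of those of an ND library. Their normalized counts summed to 992 ± 311 in HFD and 3150 ± 3568 in ND mice (SD, n = 3 each), with 58.3% of the 6 libraries' sum in ND 3. Without Lyz2 the sums were 907 ± 221 in HFD and 1006 ± 420 in ND mice, and without the 5 most abundant genes 308 ± 137 in HFD and 373 ± 218 in ND mice. In log2, the ratio of HFD to ND was -1.67 with all 29 genes and 6 libraries, -0.15 without Lyz2 and -0.15 without ND 3.

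**Figure D4:**
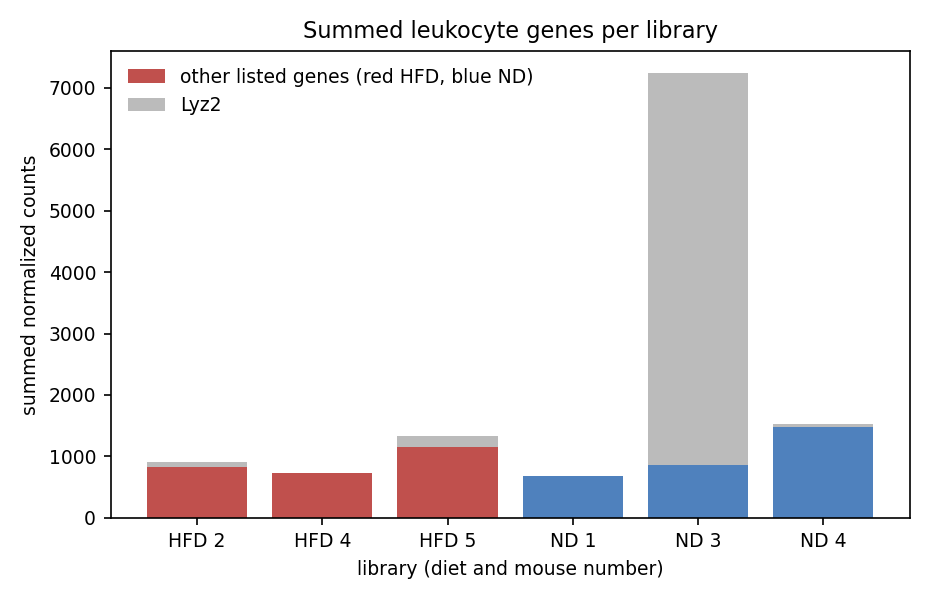
Stacked bars of summed normalized counts of the listed leukocyte genes per library, HFD (red) left of ND (blue), with Lyz2 in grey on top. ND 3 reaches 7241 normalized counts, of which 6388 are Lyz2, and without the grey part the 6 bars lie between 685 and 1481.

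Whether the diet was accompanied by a difference in these transcripts was asked gene by gene. Of the 18 leukocyte genes tested, 0 passed the adjusted threshold (limma, smallest adjusted p = 0.574), as did 0 of all 15655 genes, a share of 0%. The 18 had 8 fold changes above 0 and 10 below, with a median of -0.16 against 0.05 over all genes tested. At an unadjusted p under 0.05 there were 2 of the 18, Cd14 and Retnlg, both higher in HFD, against 7.92% of all genes. One of the 18, Retnlg, had every HFD library above every ND library, against 8.12% of all genes, and 0 had every HFD library below, against 5.93%. Retnlg was among the 18 only through its values in HFD, so its place in both counts is a description. On the recovered reads, edgeR's quasi-likelihood test also called 0 of the 18, with 2 at an unadjusted p under 0.05, against 9.34% of all genes. DESeq2 gave an adjusted p for 7 of the 18 and called 0 of these, with 1 of the 18 at an unadjusted p under 0.05, against 10.4% of all genes. It called 276 of the 13150 genes to which it gave an adjusted p (2.1%) and gave none for the other 11 of the 18, Lyz2 and Retnlg among them. The standard errors of the 18 had a median of 1.82 log2 units, against 0.75 over all genes, so a difference of several fold would not have been detectable for most of these genes. The mice carry separate numbers within each diet, and the number 4 of HFD and that of ND name different mice, so the p-values measure the spread between animals together with that of culture and library making.

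Most of the more abundant leukocyte genes were high in some libraries and at or near 0 reads in others. Of the 13 that reached 50 normalized counts in some library, 11 had at most 3 reads in another, and the 2 exceptions were Gpnmb and Mrc1. Over all genes that reached 50 in some library the share was 22.7%. Since genes of low mean show this pattern more, the same share was taken within a range of means. Among genes reaching 50 with a mean between 10 and 250, 10 of 12 leukocyte genes and 47.7% of all 6508 had it. Means were not matched within that range. A gene with a mean under 50, such as Laptm5 at 13.2 or Retnlg at 17.4, enters only through libraries where it is high. Its other libraries are then low in part by selection, so the 2 shares are a description. The highest library held a median of 55.2% of a gene's summed counts over the 18 tested genes, against 29.6% over all genes tested. These 2 medians were not matched for mean. The library concerned was not the same for each: the 18 were highest in HFD 2 in 2 cases, in HFD 4 in 1, in HFD 5 in 3, in ND 1 in 3, in ND 3 in 5 and in ND 4 in 4. Of the 29 genes, the number reaching 50 was 8, 5 and 5 in HFD 2, HFD 4 and HFD 5, and 2, 5 and 7 in ND 1, ND 3 and ND 4. Only Ptprc, Mrc1, Gpnmb, Trac and Ms4a1 had more than 3 reads in all 6 libraries.

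**Figure D5:**
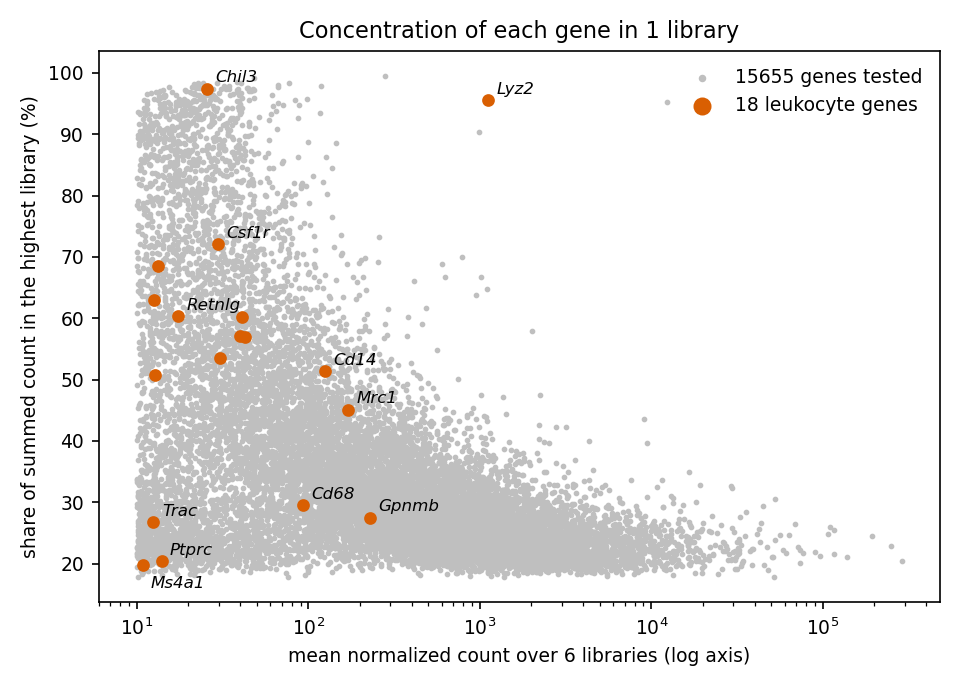
Share of a gene's summed normalized counts that lies in its highest library (y axis, percent) against its mean normalized count over the 6 libraries (x axis, log scale) for the 18 tested leukocyte genes (orange) and all 15655 genes tested (grey). Ptprc (20.4%) and Ms4a1 (19.8%) lie near an even split, and Lyz2 (95.5%) and Chil3 (97.5%) near the top.

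No further leukocyte gene outside the list passed the adjusted threshold with limma. In 8 lists of other pan-leukocyte, macrophage, dendritic, mast cell, T, B, NK and neutrophil genes, 59 of 93 had a row, 29 were tested and 0 passed the adjusted threshold with limma, with 3 at an unadjusted p under 0.05, against 7.92% of all genes. Of the 29, 4 had every HFD library above every ND library, against 8.12% of all genes, and 2 had every HFD library below, against 5.93%. DESeq2 called 1 of the 29, against 2.1% of the genes to which it gave an adjusted p. It gave none for some of the 29, Itgb2 and Rac2 among them, so the 2 shares are not directly comparable. Lcp1 was the gene called. Lcp1 encodes the actin-bundling protein L-plastin and had 1655, 3121 and 3528 normalized counts in HFD 2, HFD 4 and HFD 5, and 757, 515 and 1153 in ND 1, ND 3 and ND 4. All its HFD values lay above all its ND values (log2 fold change 1.78, adjusted p = 0.472 with limma and 0.00779 with DESeq2). The next in its list, Cytip, a regulator of leukocyte adhesion, had 3.60 to 109 in HFD and 10.6 to 339 in ND libraries.

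The 2 most abundant genes of each of the other lists follow. In the macrophage list they were Mertk, a receptor for the uptake of dead cells, with 1328 to 2375 normalized counts in HFD and 895 to 1295 in ND libraries, and the lectin Lgals3, with 141 to 258 in HFD and 77.9 to 819 in ND libraries. In the dendritic list they were Zbtb46, with 581 to 1499 in HFD and 1288 to 1545 in ND libraries, and Clec9a, with 1038 to 1444 in HFD and 862 to 1406 in ND libraries. Mertk was higher in every HFD than in every ND library, without passing the adjusted threshold (adjusted p = 0.700, limma), and the diets overlapped for the other 3. The rest of the dendritic list was far lower than Zbtb46 and Clec9a. Flt3, Ccr7 and Itgae had at most 8.05, 9.62 and 3.22 normalized counts in any library, Siglech at most 27.4 and Xcr1 at most 101. Gata2, a factor of mast cells and also of endothelium, had 3528 to 4169 in HFD and 2554 to 2949.6 in ND libraries, and Hdc, the histamine-forming enzyme, had 34.0 to 233 in HFD and 5.35 to 30.9 in ND libraries. For both, all HFD values lay above all ND values without passing the adjusted threshold (adjusted p = 0.615 and 0.592, limma). The lead neutrophil granule gene Ltf had 1630 to 3095 in HFD and 3169 to 3706 in ND libraries (adjusted p = 0.740, limma), with every HFD value below every ND value, and Cxcr2 had 27.4 to 54.0 in HFD and 42.8 to 61.8 in ND libraries. The rest of the neutrophil list was far below Ltf. Camp, Mmp8 and Mmp9 stayed at or under 3 reads in every library. Mpo had 0.971 to 4.03 and Elane 9.71 to 34.6 normalized counts over the 6 libraries. The T cell factor gene Tcf7 had 159 to 692 in HFD and 296 to 684 in ND libraries, and Cd247, the CD3 zeta chain, had 294 to 651 in HFD and 144 to 377 in ND libraries. The B cell genes Pax5 and Cd22 stayed at or under 5.94 in all. The NK receptor gene Klrk1 had 45.1 to 63.4 in HFD and 47.2 to 63.1 in ND libraries, and Il2rb, the cytokine receptor chain next in that list, had 0.971 to 9.66 in HFD and 0 to 2.14 in ND libraries. Il2rb was at 0 reads in ND 1 and Cd22 in HFD 2, whereas the other leading genes had reads in all 6 libraries.

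Genes of complement and of myeloid transcription, which act with the myeloid genes above, did not pass the adjusted threshold either. Of 17 complement genes, 13 had a row, 11 were tested and 0 passed; the most abundant were Cd93, an endothelial and myeloid receptor, with 16915 to 21027 normalized counts in HFD and 18396 to 24086 in ND libraries, and the C1 inhibitor gene Serping1, with 172 to 935 in HFD and 569 to 2471 in ND libraries. Of 14 genes of PU.1, its partners and other myeloid factors, 11 had a row, 9 were tested and 0 passed. The most abundant, Klf4 and Fli1, which endothelium also makes, were expressed in all: Klf4 had 8839.5 to 13995 in HFD and 11306 to 16419 in ND libraries, and Fli1 had 2043 to 2999.8 in HFD and 1894 to 4128 in ND libraries. Maf, a factor of macrophages and of other cells, was the 1 gene of this list that DESeq2 called (adjusted p = 1.98e-05, against 0.305 with limma), with 12.6, 24.96 and 98.6 normalized counts in HFD 2, HFD 4 and HFD 5, and 751, 628 and 786 in ND 1, ND 3 and ND 4. All its HFD values lay below all its ND values, a pattern that 5.93% of all genes had. The call of 1 of the 9 tested stands against 2.1% of the genes to which DESeq2 gave an adjusted p. DESeq2 gave none for some of the 9, Cebpa and Irf8 among them, so the 2 shares of calls are not directly comparable.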

How the data were processed

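RNA of 6 lung endothelial cell libraries, each of 500 cells from 1 mouse, was copied from oligo(dT) primers by template-switching reverse transcription and amplified by PCR, per the labels' protocols. The submitters' processing notes name GRCm38 and, with no role or order, HTSeq 0.6.1, SAMtools 0.1.19, Bowtie 1.0.0, TopHat2 2.0.10, DESeq2, FastQC 0.11.7 and cutadapt. Neither the annotation nor the strand setting of the counting is given in the sources used here. The values deposited by the authors are a normalized signal, that is, reads per gene over 1 size factor for each library. Of these values 100% were whole multiples of 1 read within 1e-06, so reads and depth could be recovered. Every pair of libraries differed beyond sampling noise (chi-square per degree of freedom 96.2 to 231). Per-sample columns that matched no label numbered 0.

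HFD minus ND was tested two-sided on log2(normalized count + 1), with a filter that kept 15655 genes (mean of 10 or more). The test was limma 3.58.1 (intensity trend, no covariates) in R 4.3.3, with Benjamini-Hochberg adjustment over all these genes at 0.05. The added count shrinks the fold change of genes that are low in all libraries. For genes at 0 reads in some libraries the fold change can exceed that of edgeR, as for Cd14 (5.14 against 2.23). The script was checked on simulated data. Alternatives were edgeR 4.0.16 (quasi-likelihood) and DESeq2 1.42.0 on the recovered reads, other pseudocounts (0.5 and 5), filters and scalings, and each library left out in turn. The bound on Retnlg and the summed level without Lyz2 with each library left out, and the settings of the count of genes high in 1 library and near 0 in another, were added after seeing the data. Each diet has a mouse numbered 4, but these are different animals, so nothing was paired.

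The members, the gene lists and the tests were chosen with earlier results of these data known. By the rule for named genes, values in every library were given for members with a mean of at least 50 and for Fcgr3, Fcgr2b and Icam2, fold changes for the members with that mean, and other members by counts and ranges, with values where 1 library held over 50% of a role group's counts; other genes were the 2 of highest mean in each list given in the text, and any past the threshold. Ptprc, Laptm5, Lck, Cd2, Igkc, the share in 1 library, Retnlg's fold change and the companion genes Sftpa1, Sftpb, Sftpd, Scgb1a1, Nkx2-1, Pdpn, Stab1, Reln, Prox1, Itgb2, Ptpn6, Gp1ba, Itga2b, Hbb-bt, Hdc and Maf were singled out after their values were seen. So was the rest of the pan-leukocyte, macrophage, T cell, neutrophil and dendritic lists, and so were Cebpa and Irf8. Positions and exon lengths are from GENCODE M21 (GRCm38), and promoters from RefSeq.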

Additional observations from a re-analysis of the deposited data

How the results depend on the processing

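No leukocyte gene passed the adjusted threshold under any of the 15 alternatives, under which limma and edgeR called 0 genes of the whole table and DESeq2 called 276; DESeq2 gave no adjusted p for 11 of the 18 genes. The count of leukocyte genes whose diets did not overlap was 1, and became 2 at a minimum mean of 1, 2 with no filter, 0 at a minimum mean of 50, and 1 to 3 with each library left out in turn. Fold changes of Cd14 and Mrc1 kept their direction in all 15, at 3.98 to 7.47 and -4.14 to -1.25 with a library left out. With each library left out in turn, that of Cd68 ranged over -2.28 to 0.85, that of Gpnmb over -0.52 to 0.87 and that of Lyz2 over -4.44 to 1.88; the cause of the reversals was not tested. The summed level without Lyz2 had a log2 ratio of HFD to ND of -0.36 to 0.24 with each library left out. The count of genes high in 1 library and near 0 reads in another was 10 in each such case, and 14 and 8 at levels of 20 and 100 normalized counts. A minimum mean of 50 moved the median fold change of all genes to 0.115. With 3 mice per diet and a few reads behind most values of the 11 genes under a mean of 10, those genes were not tested. No paired analysis was possible because the diets share only mouse number 4, which names different mice.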
